A study of Mus musculus with 4 samples.

Results

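The genes described here are the Rab GTPases, the synaptotagmins and the SNARE proteins with their Sec1/Munc18 and Munc13 partners, read on 4 arrays of mouse fibroblast RNA. They were chosen by gene name alone (Rab, Syt, Stx, Vamp and Stxbp with a number, Snap23, Snap25, Snap29 and Snap47, and Unc13d), and each took its probe with the highest mean processed signal. The rule found 110 genes on 163 probes, of 27619 named genes on the array: 59 Rabs, 17 synaptotagmins, 15 syntaxins, 8 Vamp, 4 Snap and 6 Stxbp genes, and Unc13d. Swiss 3T3 is an established mouse fibroblast line. Cells with intact Lpar1 (Lpar1+/+, WT) and cells without it (Lpar1-/-, KO) were taken at 0 h and after 24 h of coculture with wild-type bone marrow-derived mast cells, with 100 ng/ml SCF in the coculture. The mast cells had been grown from marrow with 10 ng/ml IL-3. After coculture, fibroblasts were either collected by adherence or purified with CD117 (Kit) beads, and the labels do not say which was done for each sample. The KO cells are a CRISPR/Cas9 clone grown from a single cell, and Lpar1 encodes a receptor for lysophosphatidic acid. Each group has 1 array, hybridised with RNA pooled from 3 samples, so no replicate spread can be had and nothing was tested. The titles call all 4 samples cocultured 3T3, those at 0 h too. The design lists fibroblasts both with mast cells and without them, and the labels say no more on whether mast cells were present at 0 h.

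Membrane traffic moves cargo between organelles in vesicles. A Rab loaded with GTP marks a membrane and recruits the tethers that bring a vesicle to its target. A vesicle SNARE (VAMP) and target SNAREs (syntaxin and SNAP) then zip together and fuse the membranes, with Sec1/Munc18 proteins (Stxbp) as their chaperones. Synaptotagmins are membrane proteins with paired C2 domains, many of which sense calcium and time the fusion. Mast cells store histamine and proteases in granules related to lysosomes and release them by this machinery. In the mouse, Rab27a, Rab27b, Rab37, Rab44, Unc13d (Munc13-4) and Stxbp2 (Munc18-2) are known for their part in granule release of such cells.

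Values are log2 processed signal relative to the array's own 75th percentile, so that 0 is that percentile, and 4 values in a row stand for WT then KO at 0 h, followed by WT then KO at 24 h. A level of one probe cannot be set against that of another. Calls of higher or lower need a 2-fold difference, which is 1 on the log2 scale, between a pair of arrays that both have the probe well above background. Errors are standard errors (SE) of a difference from the scanner software's spot error and cover neither culture nor labelling. Over the members their median was 0.20, with a range of 0.20 to 0.43, and 0.29 for a difference of differences. Of the 110 members, 87 were well above background on all 4 arrays, 15 on 1 to 3 of them and 8 on none. The 8 were Rab25, Rab39, Rab9b, Stx19, Syt12, Syt2, Syt4 and Vamp9, and no spot was saturated on any array.

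The arrays labelled 0 h carried mast cell transcripts. The 20 mast cell markers had medians of 3.18, 4.21, −5.09 and −5.06, and 19, 19, 13 and 12 of them were well above background. Kit, the SCF receptor, read 4.45, 5.37, −6.14 and −5.40, and Cpa3, a granule protease, read 6.19, 6.25, −1.75 and −1.07. The 20 pan-leukocyte markers had medians of 0.87, 1.91, −4.62 and −5.34, and the 10 macrophage and granulocyte markers −1.42, −2.61, −2.20 and −3.59. For the 20 fibroblast markers the medians were 1.84, 1.52, 2.66 and 2.54, with collagen Col1a2 at 5.90, 5.44, 6.26 and 5.99. Not all of them marked these cells: the surface protein Thy1 read −7.02, 3.73, −7.41 and 4.12, and Lum, a matrix proteoglycan, was well above background on 1 array. Lpar1 itself read −3.20, −3.43, −3.15 and −3.61 at its only probe (chromosome 4 from 58499672 to 58499731, mm9), and since the edited stretch was not mapped to that probe here, the reading checks nothing about the genotype. In RNA of mixed cells, fewer cells of a type and less RNA per cell cannot be told apart.

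Members lower at 24 h in both genotypes numbered 13, several of which serve granule release. This count takes in genes that were not well above background on a 24 h array. The same count over all genes was not made, so the 13 have no share to stand beside. Of the 87 members measured on all 4 arrays, 8 were lower in both genotypes, against 4.51% of 16250 genes. From the RefSeq promoter table, the 250 bases before the listed start are shown for Rab19, Stx3 and Syt9, all among the 13, and for Syt10, which differed between the genotypes instead. They let the CG content of these starts be compared. All are on build GRCm38.p6, written 5′ to 3′ on the gene's strand, with every CG dinucleotide in capitals.
Rab19, chr6:39381103-39381352, plus strand: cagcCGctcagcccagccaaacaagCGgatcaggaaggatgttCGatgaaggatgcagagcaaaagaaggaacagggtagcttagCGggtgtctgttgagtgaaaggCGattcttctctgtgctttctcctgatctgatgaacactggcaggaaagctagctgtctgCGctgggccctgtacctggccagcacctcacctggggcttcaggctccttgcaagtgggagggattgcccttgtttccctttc
Stx3, chr19:11819404-11819653, minus strand: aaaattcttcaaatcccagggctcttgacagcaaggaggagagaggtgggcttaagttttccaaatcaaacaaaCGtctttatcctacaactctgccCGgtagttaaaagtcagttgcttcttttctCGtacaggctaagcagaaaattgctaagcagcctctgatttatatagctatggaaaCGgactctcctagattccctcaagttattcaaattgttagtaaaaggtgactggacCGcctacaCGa
Syt9, chr7:107370540-107370789, plus strand: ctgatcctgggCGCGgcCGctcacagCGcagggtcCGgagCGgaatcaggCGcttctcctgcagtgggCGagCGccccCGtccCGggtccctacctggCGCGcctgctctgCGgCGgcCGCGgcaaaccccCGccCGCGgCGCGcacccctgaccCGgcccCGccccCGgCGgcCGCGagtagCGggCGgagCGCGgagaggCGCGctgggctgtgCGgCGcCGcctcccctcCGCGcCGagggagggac
Syt10, chr15:89841861-89842110, minus strand: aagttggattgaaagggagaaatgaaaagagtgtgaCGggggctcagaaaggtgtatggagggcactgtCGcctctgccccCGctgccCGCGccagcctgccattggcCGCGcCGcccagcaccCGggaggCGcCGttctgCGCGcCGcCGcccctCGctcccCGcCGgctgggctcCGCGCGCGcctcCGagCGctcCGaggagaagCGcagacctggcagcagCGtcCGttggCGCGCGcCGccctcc
The Rab19 and Stx3 sequences hold 6 CG each, against 40 in Syt9 and 32 in Syt10. The median was 6 over all 32851 listed promoters and 15 over the 109 promoters of 86 matched members. In windows of 300 bases (250 before to 50 after the start, both strands), the GATA-type motif AGATAA was found in 0 of the 8 promoters listed for 7 of the 13 genes, in 4 of 101 promoters of other members and in 11.2% of all promoters. The E-box CATGTG was found in 0 of 8, 9 of 101 and 14.2%, and the E-box CACGTG in 2 of 8, 10 of 101 and 7.15%. The GC box GGGCGG was found in 4 of 8, 70 of 101 and 35.7%. None of the motifs holds another. A match is a description of these letters and not a site.

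The members with the lowest readings at 24 h relative to 0 h were Rab44, Rab37, Rab38 and Rab19. Rab44, a large Rab of mast cell granule release in the mouse (probe on chromosome 17 from 29285831 to 29285890, mm9), read 4.67, 6.05, −5.54 and −5.13. Both 0 h arrays were high and both 24 h arrays low, a difference of −10.21 (SE 0.32) in WT and −11.18 (SE 0.24) in KO, or 1181-fold and 2318-fold lower. With normexp the differences were −8.28 and −9.42, so the folds against such low 24 h readings depend on the background correction. Rab37, found on secretory granules (chromosome 11 from 115023483 to 115023542, mm9), read 2.88, 4.02, −5.19 and −5.35, with differences of −8.07 and −9.38. Its second probe gave −7.92 and −9.38. Rab19 (chromosome 6 from 39340244 to 39340303, mm9) read 1.73, 2.76, −5.21 and −6.15, with differences of −6.94 and −8.91. Rab38, which delivers cargo to melanosomes and other lysosome-related organelles, read 3.34, 4.29, −6.23 and −3.92. It was not well above background on WT 24 h, where it was at least 725-fold lower than at 0 h, and its KO difference was −8.21 (SE 0.21). Its second probe never passed background. In each of these genes the times lay farther apart than the genotypes. The mast cell markers differed in the same direction, with medians of −7.89 in WT and −7.88 in KO, and their part in these differences was not tested.

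Rab27a and Rab27b, close relatives that dock granules at the plasma membrane in the mouse, were both lower at 24 h. Rab27a read −3.19, −2.13, −8.03 and −6.84 and was not well above background on either 24 h array, at least 7.88-fold lower in WT and 23.6-fold lower in KO. Rab27b read 2.88, 4.09, 0.47 and 2.08, with differences of −2.41 in WT and −2.02 in KO, and stayed above the 75th percentile on every array. Its second probe read 0.58, 1.81, −4.16 and −1.99, with larger differences of −4.74 and −3.80. Among the Rab3 genes, whose proteins sit on regulated secretory vesicles, Rab3c read 0.12, −0.20, −1.13 and −1.77 and was lower in both genotypes, with differences of −1.25 and −1.57. Its 3 probes ran from −1.82 to 0.99 in WT and from −1.57 to 0.20 in KO, the upper ends at a probe well above background on 1 array. Rab3a (−1.02, −0.58, −0.94 and −1.20) differed by 0.082 and −0.62. Rab32, the partner of Rab38 in lysosome-related organelles, read 1.78, 1.41, 2.04 and 1.30, with differences of 0.26 and −0.11. Rab26 (−6.73, −6.05, −6.99 and −6.54) was dim throughout.

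Some priming and fusion factors of granule release were also among the 13, while Snap23, Stx4a, Stx11 and Vamp8 were not. Unc13d, which readies granules for fusion (chromosome 11 from 115923410 to 115923469, mm9), read −0.49, 0.32, −5.31 and −5.96, with differences of −4.82 (SE 0.30) in WT and −6.28 (SE 0.31) in KO. Its second probe gave −3.004 and −4.53. Stx3, a syntaxin of apical and granule membranes, read 1.999, 2.92, 0.68 and 1.01, with differences of −1.31 and −1.91. A second probe of Stx3 gave −0.84 and −1.503. Stxbp2 read 0.66, 1.53, −0.73 and −3.41 at its brighter probe, with differences of −1.39 and −4.94. Its other probe read −0.083, 0.14, −0.66 and −0.66, with differences of −0.58 and −0.80, so the size of the Stxbp2 difference depends on the probe. Stxbp5 (tomosyn), an inhibitor of SNARE assembly, read −2.42, −1.08, −8.26 and −7.04 and was at least 13.4-fold and 48.8-fold lower. The synaptotagmins Syt5 (−3.20, −2.10, −7.55 and −7.49) and Syt9 (−2.95, −1.93, −8.47 and −8.87) were well above background at 0 h only. Syt5 was at least 7.81-fold lower at 24 h in WT and 24.0-fold in KO, and Syt9 at least 9.27-fold and 27.1-fold.

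**Figure D1:**
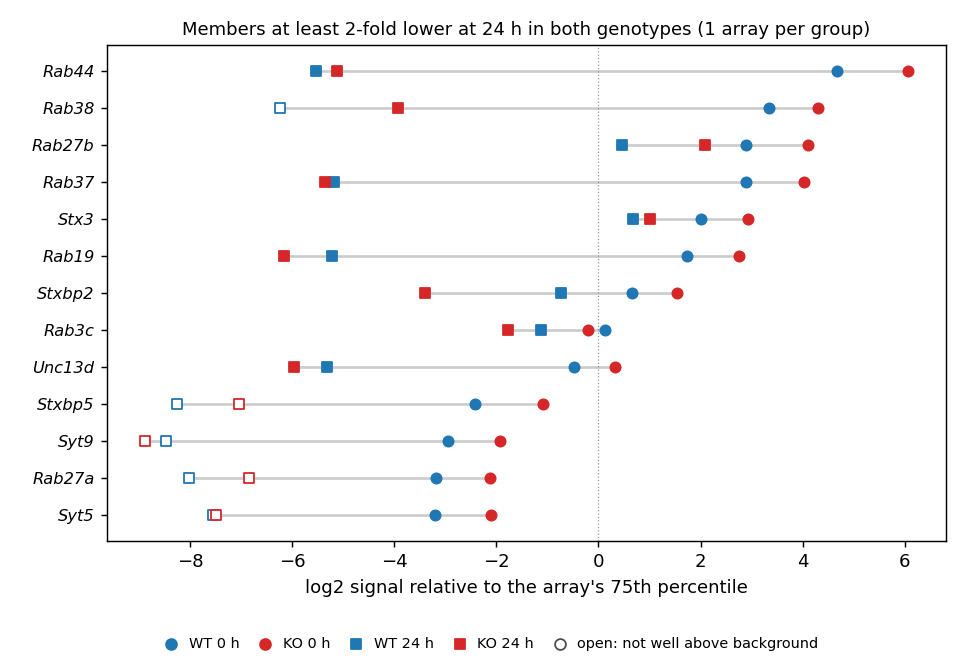
Log2 signal relative to the array's 75th percentile (horizontal axis) of the 13 members at least 2-fold lower at 24 h in both genotypes, at-least folds included. Each point is 1 array: blue WT, red KO, circles 0 h, squares 24 h, open where the probe was not well above background. Rab44, Rab37 and Rab19 read −5 or below at 24 h, while Rab27b and Stx3 stay above 0.

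These calls stand beside those over all genes as follows. In WT, 9 of 91 measured members were lower at 24 h (9.89%, against 5.70% of 18113 genes) and 6 were higher (6.59%, against 15.0%), with a median of 0.30 against 0.27 over all genes. Of 10 members well above background on only 1 array of this pair, 5 more were lower by at-least folds. Syt1 and Syt3, both dim, were 2 more higher. Over all genes 575 of 2848 such were lower and 708 higher. In KO, 15 of 91 were lower (16.5%, against 10.8% of 16961 genes) and 5 higher (5.49%, against 9.77%), with medians of 0.096 and 0.24. By at-least folds 5 more of 10 were lower, against 1140 of 3281 genes. With fibroblast marker scaling the members' medians turned to −0.13 in WT and −0.63 in KO, beside −0.17 and −0.49 over all genes. Of the 87 members measured on all 4 arrays, 8 were lower in both genotypes, against 4.51% of 16250 genes, and 0 were higher in both, against 2.15%. The 8 are Rab19, Rab27b, Rab37, Rab3c, Rab44, Stx3, Stxbp2 and Unc13d, and all of them passed 2-fold in both genotypes under normexp, another background correction, too. The split of higher and lower calls depended on the scaling. With quantile normalization it was 3 higher and 10 lower of 91 in WT, against 10.7% and 6.07% of all genes. In KO it was 10 and 13 of 91, against 13.0% and 8.36%. With each array scaled on its fibroblast markers it was 5 and 12 in WT, against 6.87% and 10.1%. In KO that scaling gave 0 and 32, against 1.16% and 26.5%.

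By role, the counts stand beside 5.70% of all genes lower at 24 h in WT and 10.8% in KO. Of 11 Rabs of secretory and lysosome-related organelles, 4 of 7 measured were lower in WT and 6 of 10 in KO, plus 2 and 1 by at-least folds. Of 17 measured Rabs of endosomes and recycling, 0 were lower in WT and 2 in KO, and of 12 Rabs of the ER and Golgi 1 in each genotype, which was Rab19. Among 8 Rabs of surface delivery and cilia, 1 was lower, in KO: Rab8b, which sends vesicles to the plasma membrane, read 2.29, 2.95, 1.29 and 1.02, with differences of −0.998 in WT, just short of 2-fold, and −1.93 in KO. Each Rab was counted under a single role at most, so Rab12 and Rab15, described below by other roles, are among those 8. Rab29 is in none of these role groups. Rab29, a Rab of the Golgi and lysosome that recruits the kinase LRRK2, read −1.69, −0.36, −3.29 and −1.15 and was lower in WT (−1.61) while its KO difference was −0.79, with −1.78 and −1.27 at its second probe. With normexp the WT difference of Rab29 was −0.996, just under 2-fold. Past 2-fold lower in KO, beside the 8 shared with WT, were Rab38, Rab8b, Rab3d (−2.31), Rab17 (−2.42), Rab40b (−2.22), Rab36 (−1.42) and Rab20 (−1.05). Rab17, Rab40b, Rab36 and Rab20 did not pass 2-fold with normexp.

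**Figure D2:**
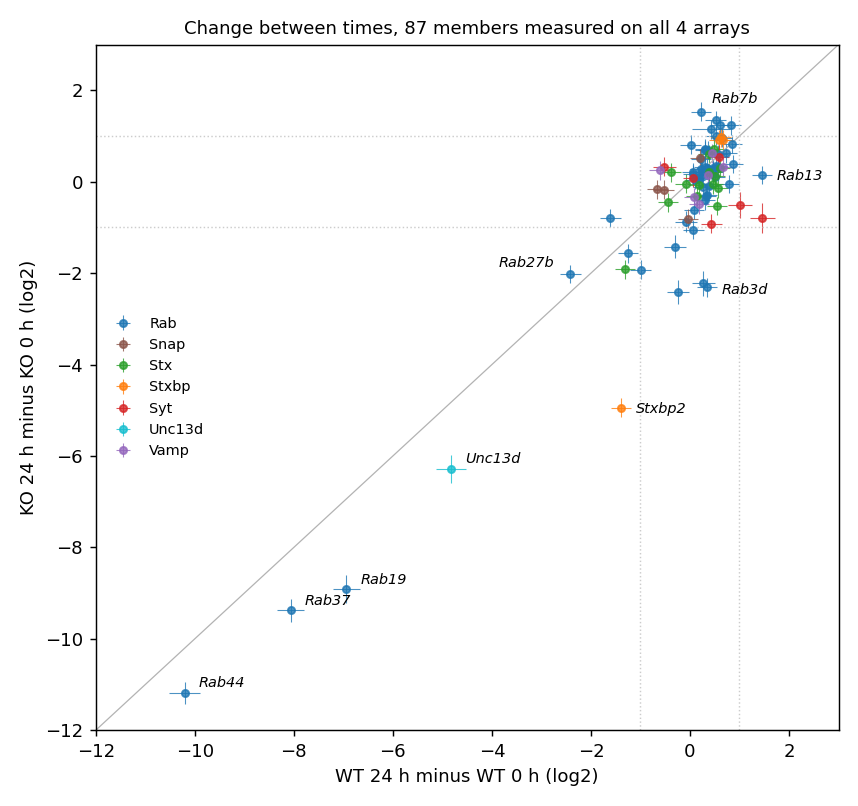
Difference between 24 h and 0 h in KO (vertical axis) against that in WT (horizontal axis), both log2, for the 87 members measured on all 4 arrays. Points are coloured by family, bars are 1 SE of spot error, dotted lines mark 2-fold and the grey line equal differences. Rab44, Rab37, Rab19 and Unc13d lie far down in both genotypes, and most members lie within 2-fold of 0.

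Most of the syntaxins, Vamp genes and Snap genes stayed within 2-fold. Of the 87 members well above background on all 4, 54 (62.1%) stayed within 2-fold over the 4 arrays, against 59.3% of 16250 genes. Among syntaxins 12 of 14 did so, among Vamp genes 6 of 6 and among Snap genes 4 of 4. Stx4a, the syntaxin of the plasma membrane in most cells, read 4.05, 4.47, 4.59 and 3.94, and Snap23, its usual partner, 0.88, 1.17, 0.35 and 1.00. The other 2 probes of Snap23 differed by −1.99 and −1.30 between times in KO, where the brightest gave −0.17. Snap29, which works in fusion inside the cell, read 1.97, 2.30, 1.92 and 1.498, and Snap25, the partner known from neurons, −1.12, −1.03, −1.79 and −1.20. Vamp8, a vesicle SNARE of granules and late endosomes, read 2.76, 3.19, 2.94 and 2.69. The vesicle SNAREs Vamp2 (−0.25, 0.0015, −0.18 and −0.33), Vamp3 (−0.72, −1.05, −0.34 and −0.90) and Vamp7 (0.56, 0.52, 1.23 and 0.86) likewise stayed within 2-fold. Stxbp3, which pairs with plasma membrane syntaxins, read 0.85, 0.36, 1.52 and 1.28. It read highest on the 24 h arrays and spanned over 2-fold between KO 0 h and WT 24 h. Of the Rabs measured on all 4 arrays, 9 of 12 of the ER and Golgi and 12 of 17 of endosomes and recycling stayed within 2-fold. Among those that did, Rab1b, of traffic from ER to Golgi, read 2.24, 2.18, 2.35 and 2.21, Rab5a, of early endosomes, 1.75, 1.88, 2.09 and 2.17, Rab7, of late endosomes, 0.73, 0.69, 1.02 and 1.38, and Rab11a, of recycling endosomes, 1.20, 1.17, 1.49 and 1.49.

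Members past 2-fold higher at 24 h in KO were Rab7b (1.53), Rab34 (1.35), Rab31 (1.24), Rab42 (1.23) and Rab15 (1.15), all of which passed 2-fold with normexp. With fibroblast marker scaling none of the 5 did, at 0.81, 0.62, 0.51, 0.51 and 0.43, and Rab15 gave 0.60 as the mean of its probes. Rab34, a Rab of cilia and macropinocytosis, read 4.47, 3.80, 4.98 and 5.14, so that KO 0 h was the lowest array. Rab31, of traffic between the trans-Golgi network and endosomes, read −0.15, 0.058, 0.46 and 1.30, highest on KO 24 h. Rab7b, of transport from late endosomes to the Golgi, read 0.30, −1.34, 0.52 and 0.19, and only KO 0 h was low. In WT, Rab13, of surface delivery at cell junctions, was higher at 24 h by 1.45 (SE 0.20) at its brighter probe and 0.89 at the other, and read −1.52, −1.80, −0.067 and −1.65. The other 5 higher calls in WT were the dim synaptotagmins Syt7, Syt8, Syt14, Syt15 and Syt17, with differences of 1.02 to 1.55 on levels below −4 on every array. None of the 5 passed 2-fold with normexp, and all 4749 measured genes with a mean level below −4 had a median difference of 0.88 in WT.

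The member with the largest difference between genotypes was Syt13, an unusual synaptotagmin thought not to bind calcium. Its probe, on chromosome 2 from 92795818 to 92795877, mm9, read 3.61, −5.38, 4.20 and −4.84. Both WT arrays were high and both KO arrays low, a difference of −8.99 (SE 0.23) at 0 h and −9.04 (SE 0.22) at 24 h, or 509-fold and 525-fold lower in KO. It is the lowest KO minus WT value of any measured gene at either time. With normexp the differences were −7.41 and −7.34. Between times Syt13 differed by 0.59 in WT and 0.55 in KO, where the mast cell markers had medians of −7.89 and −7.88. The array has 1 probe for it, so a second reading of Syt13 cannot be had here. Because the KO cells are 1 clone, the loss of Lpar1 and other differences of that clone cannot be told apart.

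Syt10, a calcium sensor of regulated secretion known from mouse neurons, was the other member lower in KO at both times. Its probe (chromosome 15 from 89612967 to 89613026, mm9) read −1.85, −3.20, −1.41 and −4.12, both KO arrays below both WT arrays, with KO minus WT differences of −1.36 (SE 0.21) and −2.71 (SE 0.21). With fibroblast marker scaling these were −0.57 and −2.21, so the call at 0 h was lost. Those markers themselves differed: at 0 h 7 of 19 measured were lower in KO and 2 higher. This scaling raised the median KO minus WT of all genes at 0 h from 0.054 to 0.84. The Syt10 promoter shown above holds 32 CG, fewer than the 40 of Syt9. Of 87 members Syt13 and Syt10 were lower in KO at both times, against 2.40% of 16250 genes. At both times 4 were higher, against 2.64%.

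The 4 higher in KO at both times were Rab15, Rab27b, Rab29 and Stx11. Rab15, of early and recycling endosomes (chromosome 12 from 77898991 to 77899050, mm9), read −5.98, −2.57, −5.55 and −1.42, with KO minus WT differences of 3.41 (SE 0.27) at 0 h and 4.13 (SE 0.35) at 24 h. The lowest signals well above background on the WT arrays were −7.36 at 0 h and −6.16 at 24 h, and with normexp the differences were 1.23 and 2.29. A second Rab15 probe was well above background on 0 of the 4 arrays. Rab29 was higher by 1.33 and 2.14, and by 1.08 and 1.59 at its second probe. Rab27b was higher by 1.21 and 1.61, with 1.23 and 2.17 at its second probe. Stx11, a syntaxin of immune cell granule release, read −2.35, −1.25, −2.43 and −1.29, higher by 1.101 and 1.15, and by 0.94 and 0.95 with normexp. Its readings at 0 h and 24 h differed by −0.088 in WT and −0.039 in KO. Rab3b, of regulated secretion, read −6.93, −4.75, −7.02 and −3.78: its KO minus WT was 2.18 at 0 h (0.48 with normexp), and at 24 h KO was at least 5.21-fold higher, since WT was not well above background. For Rab38 at 24 h the KO signal was at least 4.72-fold above that of WT.

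**Figure D3:**
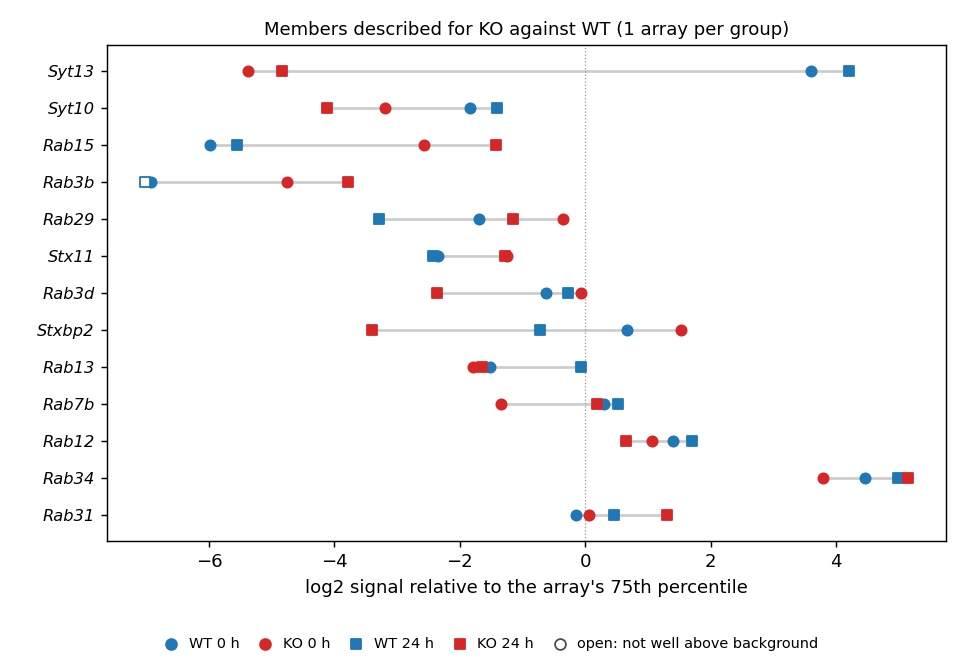
Log2 signal relative to the array's 75th percentile (horizontal axis) of 13 members described for the genotype contrast. Each point is 1 array: blue WT, red KO, circles 0 h, squares 24 h, open where the probe was not well above background. Syt13 reads 3.61 and 4.20 on the WT arrays and −5.38 and −4.84 on the KO arrays, and Rab15 is high on both KO arrays.

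At 0 h, 13 of 98 measured members were higher in KO (13.3%, against 9.41% of 19183 genes) and 4 lower (4.08%, against 4.17%). By at-least folds 2 more of 4 were higher and 1 lower, against 500 and 157 of 1832 genes. The 13 genes lower at 24 h in both genotypes were picked on these same arrays for high readings at 0 h relative to 24 h. Among them Rab27a, Stxbp5, Syt5 and Syt9 were well above background at 0 h only. All genes picked likewise were not counted, so the count that follows cannot be judged against a share. Of these 13, 12 read higher on KO 0 h than on WT 0 h, with a median of 1.03 and Rab3c (−0.33) as the exception. The mast cell markers differed by a median of 1.00 and the leukocyte markers by 1.03 in the same direction, and the part of this in the members' differences was not tested. Past 2-fold higher on KO 0 h, beside Rab15, Rab3b, Rab29, Rab27b and Stx11, were Rab44 (1.39), Vamp1, a vesicle SNARE known from neurons (1.34), Stxbp5 (1.33), Rab37 (1.14), Syt5 (1.096), Rab27a (1.06), Rab19 (1.03) and Syt9 (1.02). The members lower on KO 0 h were Syt13, Syt10, Rab7b (−1.64) and Rab42 (−1.12). Not past 2-fold with normexp were Rab3b, Vamp1, Stx11, Syt5, Rab27a and Syt9 among the 13 higher, and Rab42 (−0.81) among the 4 lower. With fibroblast marker scaling Rab7b gave −0.85 and Rab42 −0.33. At 24 h, 4 of 87 were higher (4.60%, against 5.90% of 16415 genes) and 11 lower (12.6%, against 11.8%), shares near those of all genes. By at-least folds 3 more of 10 were higher and 5 lower, against 313 and 1801 of 3249 genes. Those members were Rab38, Rab3b and Vamp1 higher, and Syt1, Syt14, Syt15, Syt16 and Syt17 lower. Scaled on the fibroblast markers, 47 of 98 were higher and 1 lower at 0 h, against 39.7% and 1.28% of all genes so scaled. At 24 h 14 of 87 were higher and 7 lower, against 16.1% and 5.71%. With quantile normalization 5 were higher and 8 lower at 24 h, against 7.03% and 7.87%.

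Several members were lower in KO at 24 h alone. Rab3d, a Rab of secretory granules in exocrine and mast cells (chromosome 9 from 21713734 to 21713793, mm9), read −0.63, −0.064, −0.28 and −2.37. KO 24 h was low and the other arrays lay close together, with KO minus WT of 0.56 at 0 h and −2.09 (SE 0.20) at 24 h. Its second probe gave 0.73 and −1.36. Stxbp2 differed by 0.87 and −2.68 at its brighter probe and by 0.22 and 0.0020 at the other. For Rab13 KO minus WT at 24 h was −1.58, or −0.95 at its second probe. Rab12, which directs receptors to lysosomes, read 1.40, 1.06, 1.70 and 0.66, a difference of −1.05 at 24 h. Rab17, of transport in epithelia (−1.38), Rab36 (−1.29), Rab40b (−1.63), Syt7, a slow calcium sensor of lysosome fusion (−1.53), and Syt8 (−1.11) were lower too on dim probes. Neither those 5 nor Rab12 passed 2-fold with normexp, and measured genes with a mean level below −4 had a median of −0.63. Nearest to the 2-fold limit at 24 h were Rab12 at −1.05 inside it and Rab30 at 0.99 outside.

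**Figure D4:**
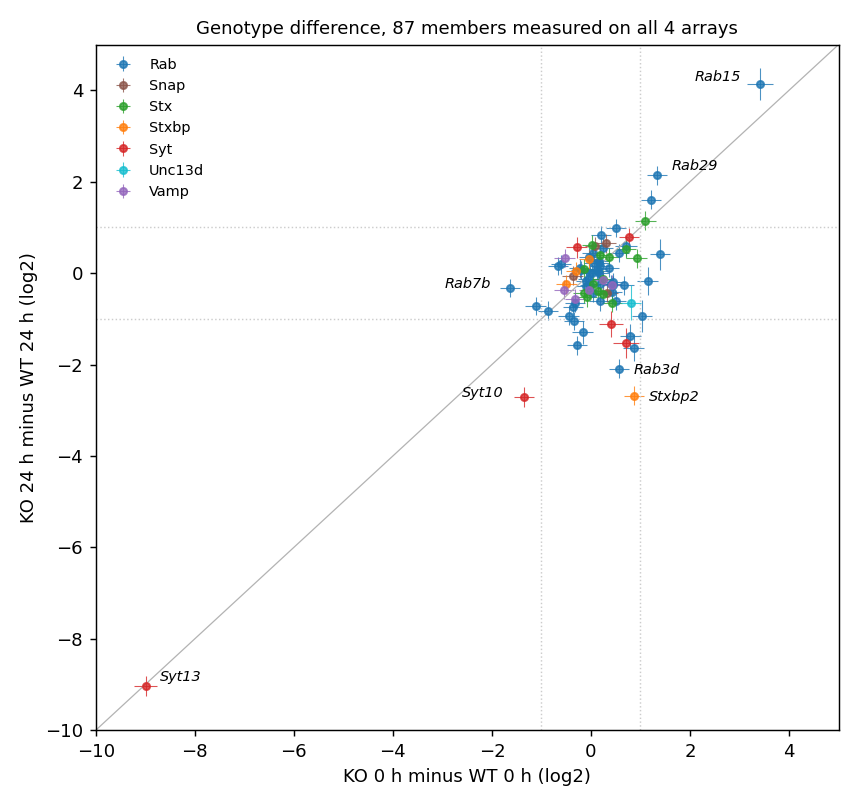
KO minus WT at 24 h (vertical axis) against KO minus WT at 0 h (horizontal axis), both log2, for the 87 members measured on all 4 arrays. Points are coloured by family, bars are 1 SE of spot error, dotted lines mark 2-fold and the grey line equal differences. Syt13 lies at −8.99 and −9.04 and Rab15 at 3.41 and 4.13, while Stxbp2 and Rab3d lie below 0 at 24 h only.

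The difference between 24 h and 0 h itself differed at least 2-fold between the genotypes in 15 of 87 members. It was higher in KO than in WT in 1 (1.15%, against 4.82% of 16250 genes), Rab7b (1.31), and lower in KO in 14 (16.1%, against 12.7%). Stxbp2 (−3.55), Rab3d (−2.65) and Rab40b (−2.50) were farthest below, but the second Stxbp2 probe gave −0.22, and a second probe of Rab13 and of Stx4a also stayed under 2-fold. Of the 14, 6 passed 2-fold with normexp: Rab13, Rab19, Rab37, Rab3d, Stx4a and Stxbp2. Rab44 (−0.97) lay just outside the limit. Members of each kind of contrast share arrays, so a high KO 0 h reading lowers the KO time difference and raises the genotype difference at 0 h.

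The partners of these genes, were taken from lists by function. Of 39 Rab regulators and effectors, 27 were measured in WT, 4 higher and 1 lower at 24 h, shares of 14.8% and 3.70% against 15.0% and 5.70% of all genes, with 1 higher and 5 lower by at-least folds. In KO 1 of 28 was higher and 3 lower, 3.57% and 10.7% against 9.77% and 10.8%, with 4 more lower by at-least folds. Sytl3, a synaptotagmin-like effector of Rab27, read 2.03, 3.01, −6.41 and −7.51, and Mlph (melanophilin), another Rab27 effector, −2.64, −1.61, −6.77 and −7.98. Rab3il1, an exchange factor of Rab3 and Rab8 proteins, read 0.11, −1.99, 2.41 and 0.38. Of 32 other SNAREs and fusion factors, 0 of 27 measured were higher or lower in WT and 0 and 3 of 27 in KO (11.1% lower, near the 10.8% of all genes), with 1 more lower in each by at-least folds. Unc13b (Munc13-2), a relative of Unc13d, read −0.76, 0.65, −6.34 and −3.16. Of 21 exocyst subunits and other tethers, 0 were higher or lower in WT and 2 were lower in KO (9.52%), Exoc3 (−2.03) and Exoc6 (−1.28). The cause of none of these differences was tested.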

How the data were processed

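Single-colour Agilent arrays of a mouse design annotated on mm9, per the file headers, measured 4 pooled RNA samples. Per the file headers, the spot intensity came from Feature Extraction 12.1.1.1, its background removed by spatial detrending, and it was not scaled between arrays. The authors' deposited value table holds a ratio, the processed signal over that array's 75th percentile, with 1 constant per array (749.9 to 1197).

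Control spots and outlier flags were left out, the processed intensity as deposited was taken to log2, the 75th percentile over 43020 non-control spots was subtracted, and spots of a probe were averaged. Between 62.1% and 72.7% of spots were well above background. Accessions in the RefSeq table of GRCm38.p6 matched the probes of 109 of the 110 members, and no symbol changed. Where 1 array of a pair was not well above background, an at-least fold divides the bright array's signal by a floor on the dim array: the weakest signal of any well above background probe there, or the probe's own reading if that is larger. Calls use 2-fold, with no test, since each group has 1 array. The members, gene lists, named genes and settings were chosen with earlier results of these data known. Members were named where they were 2-fold apart in a contrast, at its ends, near the limit, or known from granule release. Alternatives were quantile normalization, normexp before it (offset 50, limma 3.58.1), the authors' table, 2 filters, the mean of probes and scaling on fibroblast markers. The values of some members are not reported here. Scaling, averaging of spots and differences were tested on simulated arrays with fold changes set in brighter probes only. The background filter, at-least folds, dim probes and alternatives were not tested in that way.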

Additional observations from a re-analysis of the deposited data

Results flagged for a closer look

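Several members had differences of opposite sign under the same contrast in the 2 genotypes or at the 2 times, each beyond the normal interval of its spot error and at least 2-fold apart from each other. With 1 array per group the difference between these effects was not tested. All genes were not counted in this way, so the counts below have no share to stand beside.

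KO minus WT was above 0 at 0 h and below 0 at 24 h in 8 members. It was 0.87 and −2.68 in Stxbp2, 0.56 and −2.09 in Rab3d, and 0.86 and −1.63 in Rab40b. In Syt7 it was 0.71 and −1.53, in Rab17 0.79 and −1.38, and in Rab19 1.03 and −0.94. Rab20 had 0.51 and −0.60, and Stx4a 0.42 and −0.65. The other Stxbp2 probe gave 0.22 and 0.0020. Rab40b, Syt7 and Rab17 have mean levels below −4, and all measured genes that dim had medians of 0.48 and −0.63. With normexp the differences at 0 h and 24 h in Rab40b, Syt7, Rab17 and Rab20 were under 2-fold apart. The mast cell markers had medians of 1.00 over 19 measured at 0 h and 0.68 over only 11 measured at 24 h. Over all 20 of them the median levels at 24 h were close, −5.09 in WT and −5.06 in KO. The pan-leukocyte markers, which also turned sign, had medians of 1.03 over 20 measured and −0.46 over 13. The part of both marker lists in these values was not tested.

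The difference between 24 h and 0 h was above 0 in WT and below 0 in KO in Stx4a (0.54 and −0.53), Syt10 (0.43 and −0.92) and Syt7 (1.46 and −0.79). Syt7 is dim on every array.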

How the results depend on the processing

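All 82 differences of members called at least 2-fold kept their sign with quantile normalization, normexp, the authors' table, the mean of probes and fibroblast marker scaling. They stayed past 2-fold in 68, 50, 82, 73 and 69 of the 82. The authors' table has the same scale as the main values, so its result was fixed in advance. All 82 were picked for being past 2-fold, so a kept sign says little. Counts of called members moved more, and the cause was not tested except that a filter changes how many members are measured. The percentages that follow are the shares of all genes in the same setting. Without a filter on dim probes, 11 of 110 members were higher (28.6%) and 15 lower (7.56%) at 24 h in WT, and 23 lower in KO (19.3%). In that setting 9 were higher (5.84%) and 19 lower (24.6%) in KO at 24 h. The time difference was then higher in KO than in WT in 3 (5.19%) and lower in 26 (35.2%). With normexp 1 was higher at 24 h in WT (2.53%), 8 were higher in KO at 0 h (4.13%) and 5 lower in KO at 24 h (4.00%). The time difference was then higher in KO in 2 (2.79%) and lower in 8 (3.99%). With the stricter filter 1 of 83 was higher at 24 h in WT (4.56%). In that setting 7 were higher in KO at 0 h (4.89%) and 7 lower in KO at 24 h (6.72%). With quantile normalization 3 were higher at 24 h in WT (10.7%) and 10 in KO (13.0%), and the time difference was higher in KO in 3 (7.40%). Fibroblast marker scaling moved the medians of all genes to −0.17 (WT) and −0.49 (KO) between times and to 0.84 (0 h) and 0.42 (24 h) between genotypes, from 0.27, 0.24, 0.054 and −0.080. Under it 0 members were higher (1.16%) and 32 lower (26.5%) at 24 h in KO. At 0 h 47 were higher (39.7%) and 1 lower (1.28%) in KO than in WT, and at 24 h 14 higher (16.1%) and 7 lower (5.71%). No paired analysis was possible because each group has 1 array, and for the same reason no array could be left out. Dim probes limit the synaptotagmins most: 6 of 17 were well above background on KO 24 h.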
